A study of Mus musculus with 14 samples.

Results

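The IL-2 pathway genes described here are the cytokine gene Il2, its receptor chains Il2ra, Il2rb and Il2rg, the transcription factors Stat5a and Stat5b, and the feedback inhibitors Cish, Socs1, Socs2 and Socs3. They were taken as the probe sets whose platform symbol was exactly 1 of these 10 names, and 9 of the 10 had such a probe set. Il2rg was not analysed here. The 9 genes had 20 probe sets, and each gene was represented by the probe set with the highest mean over all arrays. All 9 lay above the filter on low signals and are among the 10916 genes tested, out of 18193 named on the array. The rule picks the genes by name and uses no signal for that, but the names were chosen with earlier results of these data known. Which probe set stands for a gene rests on its mean over all arrays, whatever their group.

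Mouse CD4+ T cells of spleen and lymph node origin had been cultured under 3 polarising conditions, with or without 10 mM acetate, a short chain fatty acid, for 5 days per the protocols and 6 to 7 days per the design text. Every culture, control or treated, received human IL-2 at 100 U/ml, so there is no group without IL-2. Th17 cultures also received TGF-b1 (5 ng/ml), IL-6 (20 ng/ml), IL-1b, IL-23 and IL-21 (10 ng/ml each), TNF-a (20 ng/ml) and blocking antibodies to IL-4 and IFN-gamma. Treg cultures received TGF-b1 (5 ng/ml), and Th1 cultures IL-12 (10 ng/ml) with an antibody to IL-4. Of the 14 arrays, 6 were Th17 (3 control, 3 acetate), and Treg and Th1 had 4 each, split evenly between 2 control and 2 acetate. For treated Treg and Th1 samples the protocols read acetone (10 mM), whereas the design text has sodium acetate throughout. These are called acetate samples here, and the difference is unresolved. The sources used here do not give the strain, age or sex of the mice. Whether a group's arrays stem from different mice or cultures is not stated either, so the p-values reflect a spread between samples that may be purely technical.

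IL-2 is made mainly by activated T cells and binds a receptor built of an alpha chain (Il2ra, CD25), a beta chain (Il2rb) and the common gamma chain (Il2rg). The beta and gamma chains signal through JAK kinases, which phosphorylate STAT5. STAT5 in turn raises Il2ra and the inhibitors Cish and Socs1 to Socs3, which dampen the receptor's signal, and it takes part in silencing Il2 itself. In T cells the pathway is known for supporting Treg and effector cells and for restraining the Th17 program.

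Values are signal intensities on a linear scale. Log2 differences are on the log2(signal + 3) scale and come from limma, with the SE after ±. The adjusted p-values (limma, Benjamini-Hochberg) cover the whole set of tested genes, and those under 0.05 count as calls. The arrays differed in overall brightness, with trimmed means from 53.2 to 116.0, and an untreated Th17 array (replicate 1) was the brightest. Calls were therefore read both on the signals as deposited and after quantile normalization, which gives all arrays the same distribution. Differences are as deposited unless stated. Words such as rose and fell are kept for genes called on both scales. A level change in bulk RNA cannot be told apart from a change in the share of cells that express the gene. Of 7 T cell genes, Cd3d had group means of 2921 to 4759 and Trat1, the lowest, of 9.18 to 197. Of other cell types, Cd79a, Ms4a1, Lyz2 and Ncr1 (B cells, monocytes and NK cells) stayed at or under 13 on every array, but other genes of the same lists did not. Group means ran from 70.7 to 2148 for Ighm (B cells), from 233 to 1379 for Klrd1 (NK cells) and from 24.2 to 98.6 for Cd68 (monocytes). Cd8a, a CD8 T cell gene, averaged 114, 151 and 9.92 in Th17, Treg and Th1 control cultures, and 98.6, 123 and 17.1 with acetate. Il17a was highest in Th17 cultures (mean 866 in control and 4493 with acetate). The Th1 genes Tbx21 and Ifng were highest in Th1 cultures with acetate (443 and 10097). In Th1 control cultures they averaged 260 and 1719, beside 182 and 1014 in Treg control and 158 and 2602 in Treg acetate cultures. Foxp3, the defining factor of Treg cells, averaged 303 in Treg control cultures but 49.6 in those with acetate, so Treg names a culture condition here.

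**Figure D1:**
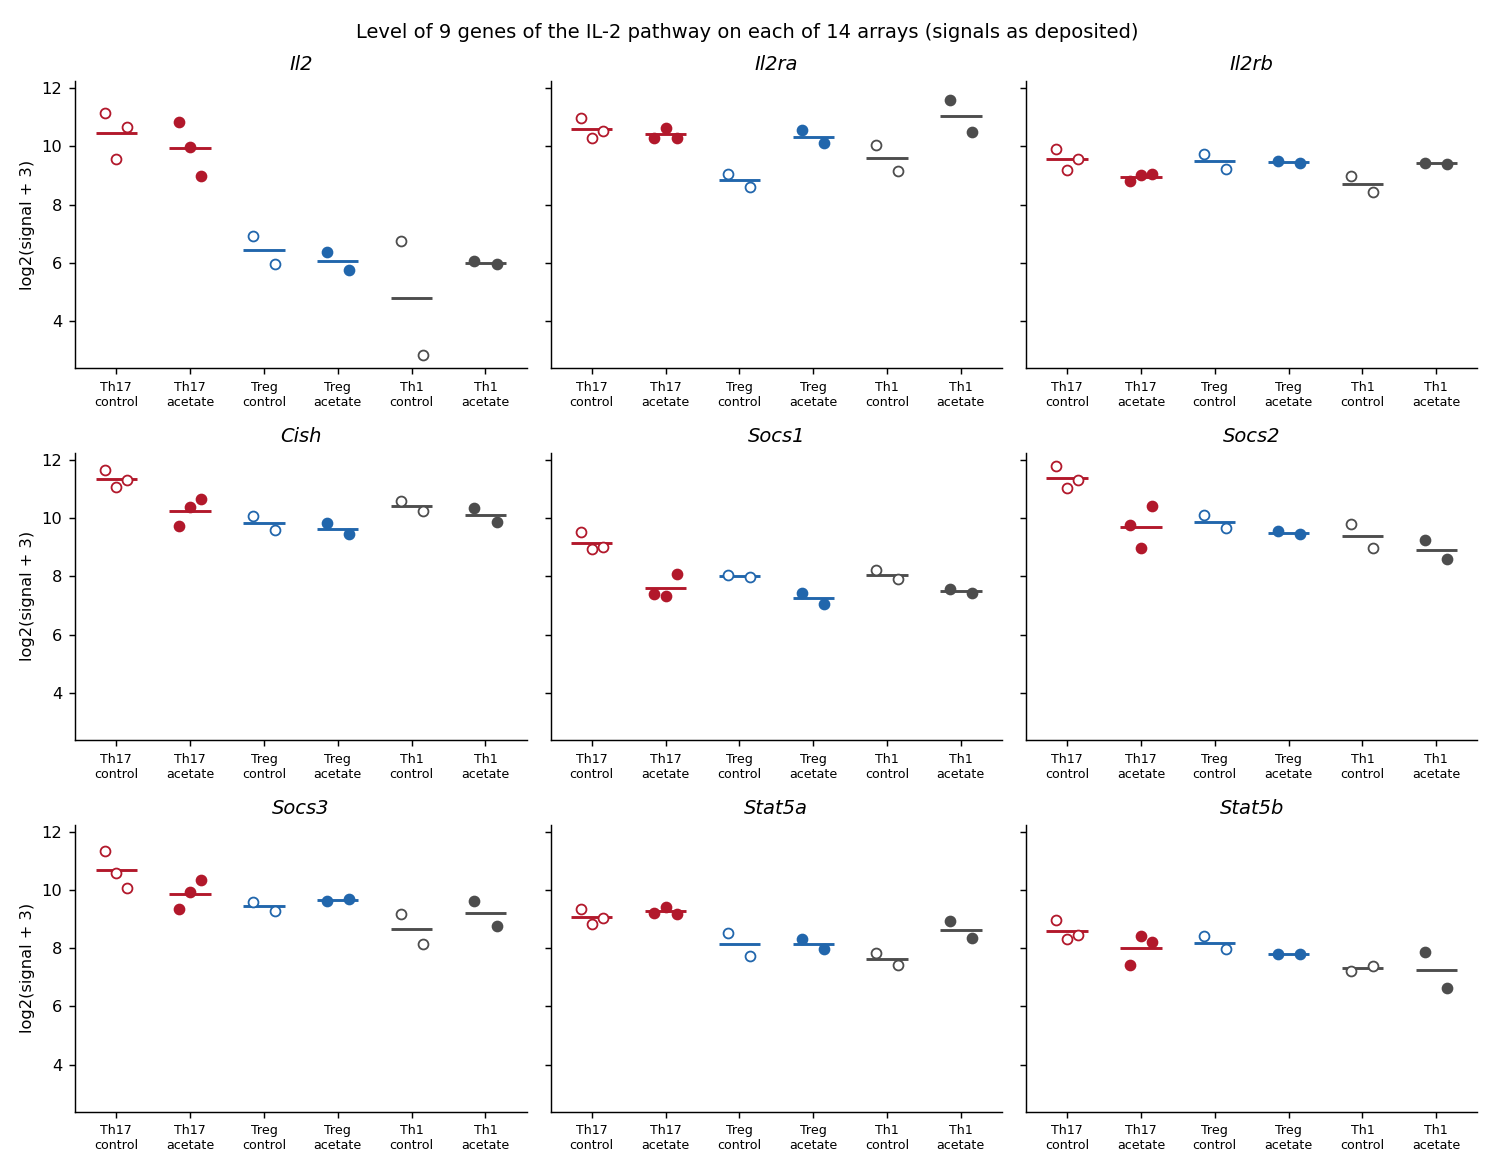
Log2(signal + 3) as deposited (y axis) of 9 IL-2 pathway genes in 6 groups (x axis). Each point is 1 array (open for control, filled for acetate) and each bar the group mean. Il2 stands high in Th17 groups and low elsewhere, and Cish, Socs1 and Socs2 sit higher in untreated Th17 arrays than in Th17 arrays with acetate.

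The genes differed in how far their group means lay apart. Il2 spanned 5.68 log2 units between its highest and lowest group as deposited, against a pooled within-group SD of 1.19. Il2rb spanned the least, 0.86 units with an SD of 0.27. The other 7 spanned 1.34 (Stat5b) to 2.47 (Socs2). With the chosen probe sets the highest group was untreated Th17 for 7 of the 9, acetate-treated Th17 for Stat5a and acetate-treated Th1 for Il2ra. The other Il2ra probe set was instead highest in untreated Th17 (3062, 1797 and 2405, against 690 and 923 in acetate-treated Th1). After quantile normalization Il2rb and Stat5b were instead highest in untreated Treg cultures.

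In Th17 cultures 3 of the 4 feedback genes fell with acetate on both scales, and 0 of the 9 genes rose in limma's test with the chosen probe sets. At an unadjusted p under 0.05, 0 of these were higher as deposited and 1, Stat5a, after quantile normalization. The dimmer Stat5a probe set, described below, was called higher on both scales (0.95, adjusted p = 0.0272; 1.30 and 0.00198 after quantile normalization). Among all genes tested, 13.4% were called lower and 4.28% higher as deposited, 8.49% lower and 4.20% higher on both scales, and after quantile normalization alone 8.67% lower and 11.7% higher. Socs2 encodes an adaptor of a ubiquitin ligase that limits cytokine and growth hormone receptors. Its signal was 3553, 2097 and 2562 on the control arrays and 860, 496 and 1353 on the acetate arrays. All 3 acetate arrays lay below all 3 control arrays. The difference was -1.68 ± 0.31 (adjusted p = 0.00102), and -1.47 after quantile normalization (adjusted p = 0.00341). The other 5 Socs2 probe sets gave -1.93, -1.93, -1.92, -1.49 and -0.54, of which the last was not called (adjusted p = 0.492). After quantile normalization 1 of the pair at -1.93 was not called either (-1.58, adjusted p = 0.0599).

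Socs1, which blocks JAK kinases directly, measured 735, 484 and 517 without and 165, 159 and 269 with acetate. The groups did not overlap, and the difference was -1.55 ± 0.27 (adjusted p = 0.000474), or -1.21 after quantile normalization (adjusted p = 0.000899). Cish, a classic STAT5 target whose product binds activated cytokine receptors, measured 3185, 2133 and 2528 without and 851, 1319 and 1596 with acetate. Again every acetate array lay below every control array, as was so for 31.8% of all genes tested in either direction. The difference was -1.08 ± 0.26 (adjusted p = 0.00621), or -0.86 after quantile normalization (adjusted p = 0.00743). Each of the 3 calls was kept on both scales without any 1 of the 14 arrays, the highest adjusted p being 0.0422 (Cish without Th17 control replicate 1).

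Socs3, an inhibitor of receptors that use gp130 such as that of IL-6, averaged 1747 ± 790 (SD, n = 3) without and 970 ± 332 with acetate. These groups overlapped, and -0.81 ± 0.33 was not called (adjusted p = 0.0877, and 0.201 after quantile normalization). Il2 averaged 1556 ± 771 without and 1115 ± 669 with acetate, -0.53 ± 0.61 (adjusted p = 0.583; -0.31 and 0.817 after quantile normalization). Il2rb averaged 768 and 498, -0.60 ± 0.25 in groups that did not overlap (adjusted p = 0.0937; -0.30 and 0.126 after quantile normalization). Stat5b averaged 387 and 267, and -0.56 ± 0.32 did not pass either (adjusted p = 0.214; -0.21 and 0.613). Stat5a averaged 539 and 617, with overlapping groups as deposited (0.21 ± 0.27, adjusted p = 0.626). After quantile normalization its groups did not overlap, as for 41.1% of all genes. The difference was then 0.53 ± 0.19 (adjusted p = 0.0622, and 0.0405 with the replicate number as a block). The brighter Il2ra probe set measured 2023, 1256 and 1483 without and 1255, 1593 and 1251 with acetate, which overlap (-0.20 ± 0.29, adjusted p = 0.676; 0.05 and 0.913 after quantile normalization). The other Il2ra probe set measured 3062, 1797 and 2405 without and 1410, 781 and 1568 with acetate. There all acetate arrays were the lower ones, but -0.98 ± 0.35 did not pass (adjusted p = 0.0552; -0.77 and 0.137 after quantile normalization). The other 2 Socs3 probe sets gave -0.84 (adjusted p = 0.0446, and 0.114 after quantile normalization) and -0.96 (adjusted p = 0.0517, and 0.127 after quantile normalization). Socs3 was called as deposited when the third control or the third acetate array of Th17, or either Th1 acetate array, was left out (adjusted p = 0.0418 to 0.0485), and Il2rb without Th17 control replicate 2 (adjusted p = 0.0274). The median of the 9 genes was -0.60 as deposited and -0.31 after quantile normalization, beside -0.29 and 0.01 over all genes tested. The summed signal of 7 T cell genes ran from 8014 to 14238 on the control and from 6109 to 8878 on the acetate arrays. The sum of 5 B cell genes, carried by Ighm, ran from 845 to 2195 and from 286 to 877, and that of 2 NK cell genes, carried by Klrd1, from 809 to 2069 and from 305 to 1101. The part of these shifts in the falls of Socs1, Socs2 and Cish was not tested.

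**Figure D2:**
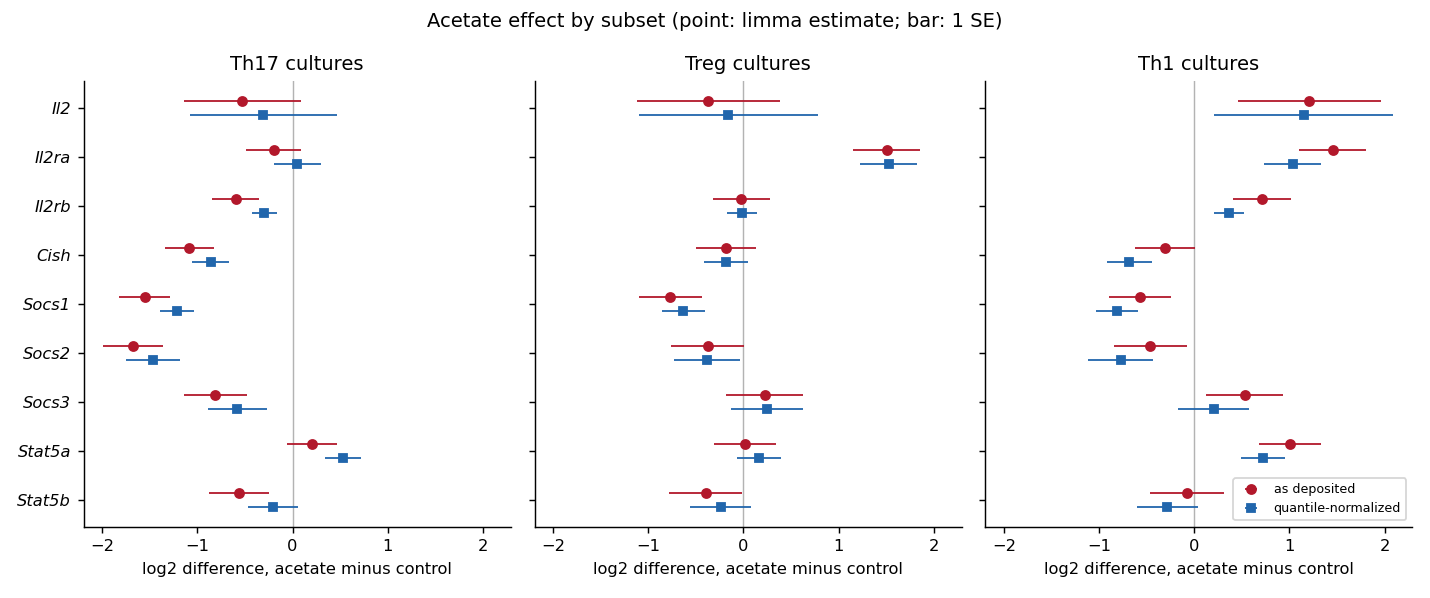
Log2 difference between acetate and control cultures (x axis) of the 9 genes in Th17, Treg and Th1 cultures, as deposited (circles) and quantile-normalized (squares), with bars of 1 SE. In Th17 cultures Cish, Socs1 and Socs2 lie between -0.86 and -1.68 on either scale, and Il2ra lies near 1.5 in Treg cultures.

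STAT5 is known to act on promoters of feedback genes through the sequence TTCNNNGAA, which reads the same on both strands. Windows from 250 bases before to 50 bases after the annotated start were taken from RefSeq (GRCm38.p6). They were found for 8 of the 10 genes, and not for Socs2 and Il2rb. Cish held 2 matches, Socs3 1 and the other 6 none, whereas 8.3% of all 32851 windows held at least 1 match and 0.457% at least 2. The windows of Cish and Socs3 are shown because they hold matches, in capitals, and that of Socs1 because Socs1 fell with Cish.
Cish (chr9:107296409-107296708, plus strand): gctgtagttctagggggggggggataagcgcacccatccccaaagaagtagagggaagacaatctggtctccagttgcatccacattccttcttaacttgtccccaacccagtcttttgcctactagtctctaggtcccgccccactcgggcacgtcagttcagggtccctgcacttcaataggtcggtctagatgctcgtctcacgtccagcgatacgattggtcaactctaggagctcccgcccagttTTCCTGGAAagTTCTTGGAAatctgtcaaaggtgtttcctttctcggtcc
Socs1 (chr16:10785487-10785786, minus strand): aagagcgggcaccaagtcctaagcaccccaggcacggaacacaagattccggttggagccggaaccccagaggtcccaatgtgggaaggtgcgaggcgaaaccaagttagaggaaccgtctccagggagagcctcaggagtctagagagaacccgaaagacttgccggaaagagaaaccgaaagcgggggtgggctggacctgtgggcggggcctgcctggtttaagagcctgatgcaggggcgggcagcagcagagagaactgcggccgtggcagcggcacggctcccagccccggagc
Socs3 (chr11:117969317-117969616, minus strand): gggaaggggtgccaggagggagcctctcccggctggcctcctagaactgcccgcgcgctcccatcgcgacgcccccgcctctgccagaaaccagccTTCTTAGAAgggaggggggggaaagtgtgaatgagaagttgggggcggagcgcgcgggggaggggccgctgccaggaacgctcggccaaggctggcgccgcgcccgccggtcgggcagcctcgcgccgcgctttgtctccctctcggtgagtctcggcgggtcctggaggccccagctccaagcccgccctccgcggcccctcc
The Cish matches occupied positions 1 to 9 and 12 to 20 counted from the annotated start as 1. That of Socs3 lay 154 to 146 bases before the start used for its window. The annotated span of Socs3 reaches 117970336 on its upstream side, beyond that window, so this match lies inside the span. No binding was measured in these samples, and a match is only a description of the letters.

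In Treg cultures only Il2ra of the 9 genes was called, as deposited and on both scales, and its 2 probe sets went opposite ways. Among all genes 2.31% were called higher and 2.73% lower as deposited, 2.30% and 2.70% on both scales, and 7.05% and 5.45% after quantile normalization. The brighter probe set (1420691_at) measured 525 and 390 without and 1504 and 1108 with acetate. The acetate arrays lay above the controls, and the groups of 57.7% of all genes likewise did not overlap. The difference was 1.51 ± 0.35 (adjusted p = 0.0126), and 1.53 after quantile normalization (adjusted p = 0.00638). The call was lost without Treg control replicate 2 (adjusted p = 0.157) and without acetate replicate 1 (adjusted p = 0.222), and without the same arrays after quantile normalization (up to 0.0779).

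The other Il2ra probe set (1420692_at), built on the same transcript accession and of similar brightness, measured 1032 and 852 without and 770 and 596 with acetate. Both acetate arrays lay below both controls, and the difference was -0.47 ± 0.43 (adjusted p = 0.631), or -0.47 after quantile normalization (adjusted p = 0.544). With the mean of both probe sets the gene was not called (adjusted p = 0.529). Of 91 genes called higher in Treg cultures that had another probe set above the filter, 10 had one with the opposite sign (11%). The rise of Il2ra is therefore a rise of 1 of its 2 probe sets.

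None of the feedback genes was called in Treg cultures. Socs1 measured 261 and 249 without and 170 and 130 with acetate. The gap of -0.77 ± 0.33 was not called (adjusted p = 0.201, and 0.0835 after quantile normalization). Socs2 averaged 949 and 722, Cish 917 and 804, and Socs3 694 and 806, with differences of -0.38, -0.18 and 0.22 and adjusted p-values of 0.676 to 0.834. After quantile normalization these were -0.38, -0.18 and 0.25 (0.536 to 0.736). Il2 was low in both groups (mean 88.7 and 65.9), -0.37 ± 0.75 (adjusted p = 0.855; -0.16 and 0.939 after quantile normalization). The differences of Il2rb, Stat5a and Stat5b were -0.02, 0.02 and -0.40 (adjusted p = 0.659 to 0.988), and -0.01, 0.17 and -0.24 after quantile normalization (0.693 to 0.968). Other probe sets gave 0.34 for Stat5b and -0.15 and -0.16 for Socs3, opposite in sign to the chosen ones (adjusted p = 0.748 to 0.889). The summed signal of the 7 T cell genes ran from 10654 to 11433 on the Treg control and from 7171 to 8120 on the Treg acetate arrays.

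In Th1 cultures Il2ra was called as deposited but not after quantile normalization. Among all genes 1.63% were called higher and 0.412% lower as deposited, 1.39% and 0.385% on both scales, and 2.10% and 1.92% after quantile normalization. The brighter probe set measured 1063 and 561 without and 3115 and 1444 with acetate, groups that did not overlap, as for 45.7% of all genes. The difference was 1.45 ± 0.35 (adjusted p = 0.0306), or 1.03 after quantile normalization (adjusted p = 0.0729). The call was also lost without Th1 control replicate 2 (adjusted p = 0.381) and without Th1 acetate replicate 1 (adjusted p = 0.174). The other probe set measured 1077 and 287 without and 690 and 923 with acetate. There the groups overlapped, and the difference was 0.52 ± 0.43 (adjusted p = 0.578), or 0.16 after quantile normalization (adjusted p = 0.873).

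Socs1 measured 292 and 237 in Th1 control cultures and 185 and 169 with acetate, or -0.57 ± 0.33, which was not called (adjusted p = 0.391, and 0.0593 after quantile normalization). Cish averaged 1373 and 1114 and Socs2 689 and 492, with differences of -0.31 and -0.46 (adjusted p = 0.662 and 0.578). After quantile normalization the groups of neither gene overlapped, as for 43.1% of all genes, at -0.68 and -0.78 (adjusted p = 0.112 and 0.211). Stat5a, one of the paired STAT5 proteins that carry the signal to the nucleus, averaged 197 without and 403 with acetate. The 1.01 ± 0.33 between them did not pass (adjusted p = 0.11; 0.72 and 0.0915 after quantile normalization). The dimmer Stat5a probe set, described below, was called higher on both scales (1.37, adjusted p = 0.0434; 1.20 and 0.0343 after quantile normalization). Il2rb averaged 420 and 679, Socs3 429 and 607 and Stat5b 156 and 162, with differences of 0.71, 0.53 and -0.08 (adjusted p = 0.226 to 0.953), and 0.37, 0.20 and -0.28 after quantile normalization (0.204 to 0.8). Il2 measured 104 and 4.10 on the control arrays and 63.0 and 58.5 on the acetate arrays, so the controls lay on either side of both. The gap of 1.21 ± 0.75 was not called (adjusted p = 0.431; 1.15 and 0.512 after quantile normalization). It was 3.16 without control replicate 1 and -0.75 without control replicate 2.

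Averaged over the 3 subsets with equal weight, Socs1, Socs2 and Cish fell and Il2ra was called higher, on both scales. Among all genes 9.30% were called higher and 11.8% lower as deposited, 9.22% and 11.2% on both scales, and 17.7% and 14.1% after quantile normalization. Socs1 fell by 0.96 ± 0.18 (adjusted p = 0.000464), Socs2 by 0.84 ± 0.21 (adjusted p = 0.00593) and Cish by 0.53 ± 0.17 (adjusted p = 0.031). With the chosen probe sets all 3 had a negative difference in each subset. Of the other Socs2 probe sets some gave 0.11 and 0.28 in Th1 cultures and the rest -0.53 to -1.30. For the mean over subsets the dimmest Socs2 probe set was not called (-0.41, adjusted p = 0.433). The rest gave -0.83 to -1.34 (adjusted p = 0.00551 to 0.033). In Treg cultures the T cell sum stood lower with acetate, as given above, and the B cell sum went from a range of 2191 to 2288 down to 812 to 1468 and the NK cell sum from 924 to 1583 down to 621 to 752. In Th1 cultures the T cell sum ran from 9152 to 10417 without and from 6803 to 8925 with acetate, the B cell sum from 492 to 568 and from 101 to 121, and the NK cell sum from 233 to 245 and from 308 to 519. The part of these sums in the mean differences was not tested. The calls of Socs1 and Socs2 were kept without any 1 array on both scales. The Cish call was lost as deposited without any 1 of 6 arrays, namely Th17 control 3, Th17 acetate 1, Treg control 1, Treg acetate 2, Th1 control 1 and Th1 acetate 2 (adjusted p = 0.051 to 0.118), and with no filter on low signals (0.0545). After quantile normalization it was -0.58 (adjusted p = 0.00414) and was kept without each array. The brighter Il2ra probe set gave 0.92 ± 0.19 (adjusted p = 0.00151) and the other -0.31 ± 0.23 (adjusted p = 0.374; 0.87 and -0.36 after quantile normalization). Il2, Il2rb, Socs3 and Stat5b gave 0.10, 0.03, -0.02 and -0.35 (adjusted p = 0.259 to 0.964), and 0.23, 0.02, -0.04 and -0.24 after quantile normalization (0.309 to 0.9).

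Stat5a also depended on the probe set. The brighter one (1421469_a_at) gave a mean difference of 0.41 ± 0.18 (adjusted p = 0.103), and 0.47 after quantile normalization (adjusted p = 0.0115). The dimmer one (1450259_a_at), examined after its values were seen, measured 130, 85.4 and 103 in Th17 control and 156, 316 and 172 in Th17 acetate cultures. In Treg cultures it measured 71.8 and 55.8 without and 130 and 134 with acetate, and in Th1 cultures 42.5 and 34.8 without and 117 and 93.5 with acetate. In each subset all acetate arrays lay above all controls, as groups did not overlap for 31.8%, 57.7% and 45.7% of all genes in Th17, Treg and Th1 cultures. Its mean difference was 1.12 ± 0.19 (adjusted p = 0.000242), and 1.26 after quantile normalization (adjusted p = 7.74e-05), kept without any 1 array on both scales. Both probe sets gave positive log2 differences in every subset, but that of the brighter one in Treg cultures was only 0.02 ± 0.33 (adjusted p = 0.988). Its mean signals there were 287 without and 282 with acetate, and the groups overlapped. The differences of the dimmer one were larger. They were 0.95 (adjusted p = 0.0272), 1.03 (adjusted p = 0.103) and 1.37 (adjusted p = 0.0434) in Th17, Treg and Th1 cultures, and 1.30, 1.28 and 1.20 after quantile normalization (adjusted p = 0.00198, 0.00995 and 0.0343). After quantile normalization the calls were kept without 14, 10 and 4 of the 14 single arrays in Th17, Treg and Th1 cultures. The Th17 call of the dimmer probe set was lost as deposited without any of 3 Th17 arrays, control 2 or 3 or acetate 2 (adjusted p up to 0.197), and its Th1 call without any 1 of 9 arrays (up to 0.259).

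**Figure D3:**
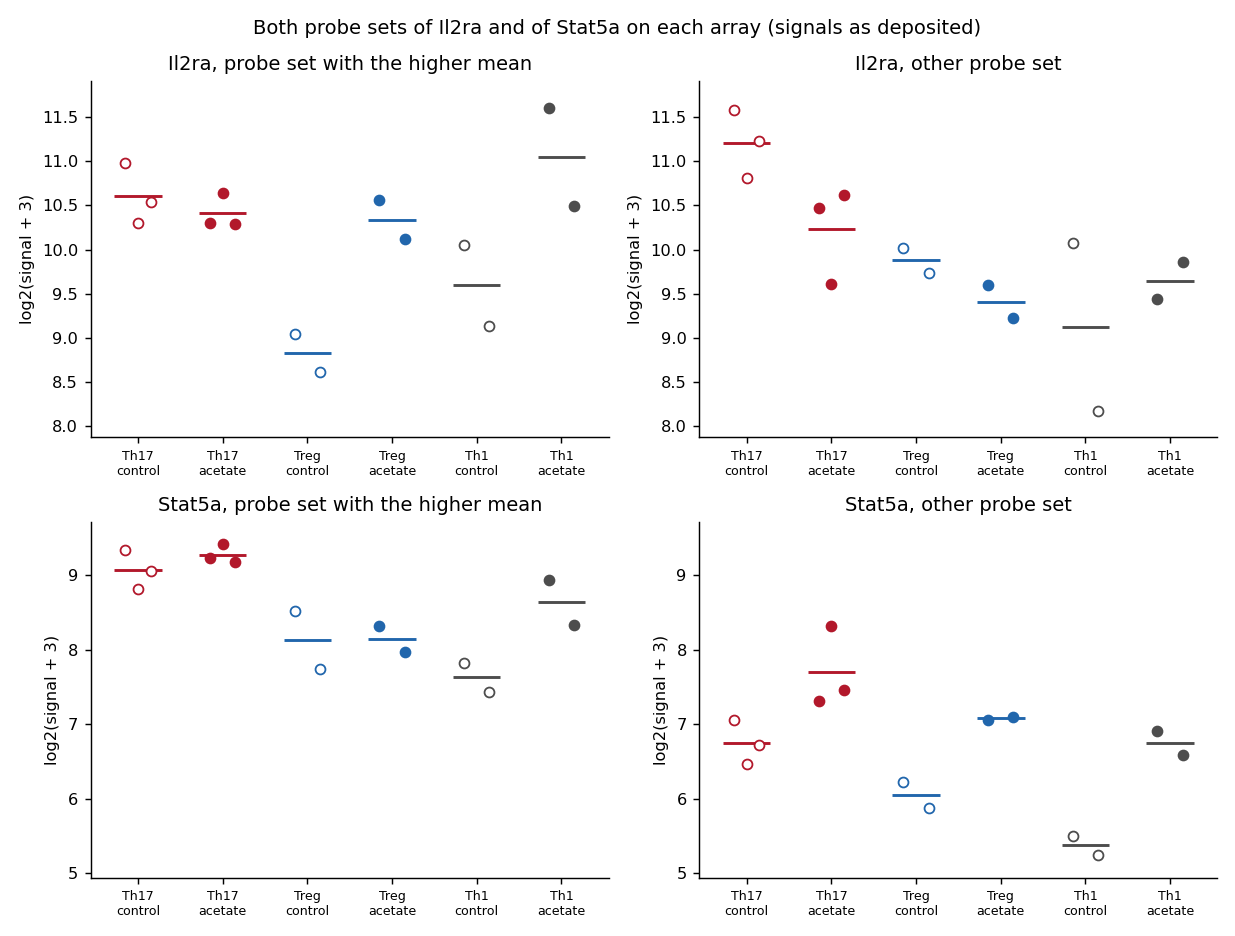
Log2(signal + 3) as deposited (y axis) of the 2 probe sets of Il2ra (top) and of Stat5a (bottom) in 6 groups (x axis). Points are arrays (open for control, filled for acetate) and bars group means. In Treg cultures the 2 Il2ra probe sets move in opposite directions with acetate (1.51 and -0.47). Both Stat5a probe sets have higher mean log2 values with acetate in each subset, the brighter one in Treg cultures by only 0.02.

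Whether the acetate difference itself varied between subsets was asked with limma's F test. It called 0 of the 9 genes on either scale (4 at an unadjusted p under 0.05 as deposited and 2 after quantile normalization), beside 0.705% of all genes as deposited and 0.440% on both scales. The lowest adjusted p was that of Il2ra, 0.0692 as deposited and 0.155 after quantile normalization (unadjusted p = 0.000912). Il2rb, Socs2 and Socs3 had unadjusted p-values of 0.01, 0.0203 and 0.0356 (adjusted p = 0.199 to 0.299), and Il2, Cish, Socs1, Stat5a and Stat5b of 0.0561 to 0.624 (adjusted p = 0.346 to 0.821). The differences between Th17 and Treg cultures in the acetate effect were -1.70 ± 0.46 for Il2ra, -1.30 ± 0.50 for Socs2, -0.90 ± 0.41 for Cish and -0.79 ± 0.42 for Socs1 (adjusted p = 0.121 to 0.863). The falls of the feedback genes in Th17 cultures are therefore not shown to be larger than the differences measured in the other two. Without Th1 control replicate 1 the F test called Il2ra (adjusted p = 0.0172) and Il2 (adjusted p = 0.00773), and Il2ra was also called without Th1 acetate replicate 1 or 2 or Th17 acetate replicate 1 (0.00541 to 0.0492).

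Between untreated subsets Il2 differed most. It measured 2288, 752 and 1628 in Th17 cultures, 118 and 59.7 in Treg cultures and 104 and 4.10 in Th1 cultures. Every Th17 array thus lay above every Treg and Th1 array, while Treg and Th1 arrays overlapped. The difference between Th17 and Th1 cultures was 5.68 ± 0.69 (adjusted p = 6.59e-06), and 5.22 after quantile normalization (adjusted p = 0.00332). It rested in size on the single Th1 array at 4.10, below the filter threshold of 9.10. The difference was 3.72 without that array (control replicate 2) and 7.64 without the other, and called either way. Against Treg cultures it was 4.02 ± 0.69 (adjusted p = 0.000337), and 3.70 after quantile normalization (adjusted p = 0.0137). These controls are the same arrays as in the acetate comparisons.

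As deposited all 9 genes were called higher in untreated Th17 than in Th1 cultures, beside 26.6% of all genes, and 4 of 9 on both scales, beside 3.00%. Over all genes the median difference was 0.62 as deposited and 0.00 after quantile normalization, which called 3.00% of genes higher and 3.60% lower. The 4 were Il2, Socs2, Socs3 and Stat5a. Socs2 averaged 2737 in Th17 and 689 in Th1 cultures, a difference of 2.01 ± 0.35 (adjusted p = 0.000598; 1.43 and 0.0178 after quantile normalization). Socs3 measured 2617, 1549 and 1076 in Th17 and 577 and 281 in Th1 cultures, a difference of 2.01 ± 0.37 (adjusted p = 0.000924; 1.42 and 0.027 after quantile normalization). These groups did not overlap, as for 55.9% of all genes. After quantile normalization the other Socs3 probe sets gave 1.59 and 1.51 (adjusted p = 0.0041 and 0.0181). Those of Socs2 gave 0.86 to 1.75 (adjusted p = 0.00851 to 0.333), and that of Stat5a 0.72 (adjusted p = 0.109). Stat5a averaged 539 and 197, 1.44 ± 0.30 (adjusted p = 0.00265), and 0.76 after quantile normalization (adjusted p = 0.0465). Its call was lost as deposited without Th1 control replicate 2 (adjusted p = 0.0616). After quantile normalization the Stat5a call was kept without only 4 of the 14 single arrays (adjusted p up to 0.343), that of Socs2 without 10 (up to 0.207), that of Socs3 without 11 (up to 0.301) and that of Il2 without any 1 of the 14.

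The other 5, Il2ra, Il2rb, Cish, Socs1 and Stat5b, had differences of 0.86 to 1.27 as deposited and 0.21 to 0.59 after quantile normalization, where their adjusted p-values were 0.24 to 0.442. Other probe sets of Il2rb and Stat5b gave 0.75 and 0.49 as deposited (adjusted p = 0.0579 and 0.319). After quantile normalization they gave 0.06 and -0.19 (adjusted p = 0.888 and 0.801). The other Il2ra probe set gave 2.08 ± 0.39 (adjusted p = 0.00121), and 1.52 after quantile normalization (adjusted p = 0.0368), so there it was called on both scales. As deposited each also lost its call without Th17 control replicate 1 (adjusted p = 0.055 to 0.133) and without Th1 control replicate 2 (0.0784 to 0.338). Il2ra, Il2rb and Cish lost it without Th17 control replicate 3 as well (0.056 to 0.0703), and Stat5b without Th1 control replicate 1 (0.0703).

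Against untreated Treg cultures 7 of the 9 genes were called higher in Th17 cultures as deposited, beside 12.2% of all genes, and 3 on both scales, beside 5.32%. Quantile normalization alone called 5.32% of all genes higher and 6.01% lower. The 3 were Il2, Il2ra and Cish. Il2ra measured 2023, 1256 and 1483 in Th17 and 525 and 390 in Treg cultures, 1.77 ± 0.32 (adjusted p = 0.00068; 1.32 and 0.00741 after quantile normalization). Its other probe set gave 1.33 ± 0.39 (adjusted p = 0.026; 0.85 and 0.193 after quantile normalization), so the direction was shared. Cish averaged 2615 ± 532 in Th17 and 917 ± 205 in Treg cultures, 1.51 ± 0.29 (adjusted p = 0.00105; 1.03 and 0.00732 after quantile normalization). The Cish call was lost without Treg control replicate 2 (adjusted p = 0.064, and 0.0882 after quantile normalization). The calls of Il2 and Il2ra were kept as deposited without each array, but after quantile normalization both were lost without either Treg control array (up to 0.13 and 0.0783). The groups of each of the 7 genes did not overlap, as for 44.0% of all genes.

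Socs1, Socs2, Socs3 and Stat5a were called as deposited (differences of 0.94 to 1.51) and not after quantile normalization (0.44 to 1.03, adjusted p = 0.0521 to 0.202). Their calls as deposited were lost without Treg control replicate 2 (adjusted p = 0.15 to 0.532). The calls of Socs2, Socs3 and Stat5a were lost without Th17 control replicate 1 (0.0545 to 0.167), those of Socs1 and Socs3 without Treg control replicate 1 (0.0664 and 0.0721), and that of Stat5a without Th17 control replicate 3 or either Treg acetate array (0.0533 to 0.0923). Il2rb, the signalling chain of the receptor, differed by 0.08 ± 0.28 as deposited (adjusted p = 0.869) and by -0.46 after quantile normalization (adjusted p = 0.0608). Stat5b gave 0.39 ± 0.35 (adjusted p = 0.454), and -0.11 after quantile normalization (adjusted p = 0.855).

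Untreated Treg and Th1 cultures differed in 0 of the 9 genes as deposited in limma (4 at an unadjusted p under 0.05), beside 2.44% of all genes (2.30% on both scales). After quantile normalization, which called 2.86% of genes higher and 2.14% lower, Il2rb was higher in Treg cultures (0.67, adjusted p = 0.0306). Its means were 725 in Treg and 420 in Th1 cultures, 0.78 ± 0.30 as deposited (adjusted p = 0.225), and the quantile-normalized call was kept without 8 of the 14 single arrays. Socs2, Socs3, Stat5a and Stat5b gave 0.50, 0.77, 0.50 and 0.88 (adjusted p = 0.322 to 0.659), and Cish and Socs1 -0.59 and -0.04 (0.459 and 0.979). After quantile normalization these 6 lay between -0.67 and 0.70 (adjusted p = 0.132 to 0.653). The Il2ra probe sets again had opposite signs, -0.77 for the brighter (adjusted p = 0.356; -0.94 and 0.0991 after quantile normalization) and 0.75 for the other (adjusted p = 0.499; 0.67 and 0.454). So did those of Stat5b, where the other probe set gave -0.55 (adjusted p = 0.657; -0.85 and 0.272 after quantile normalization). Il2 gave 1.66 ± 0.75 (adjusted p = 0.342; 1.52 and 0.431 after quantile normalization). Il2 was called higher in Treg cultures without Th1 control replicate 1 (3.62, adjusted p = 0.000707) and was -0.30 without control replicate 2.

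**Figure D4:**
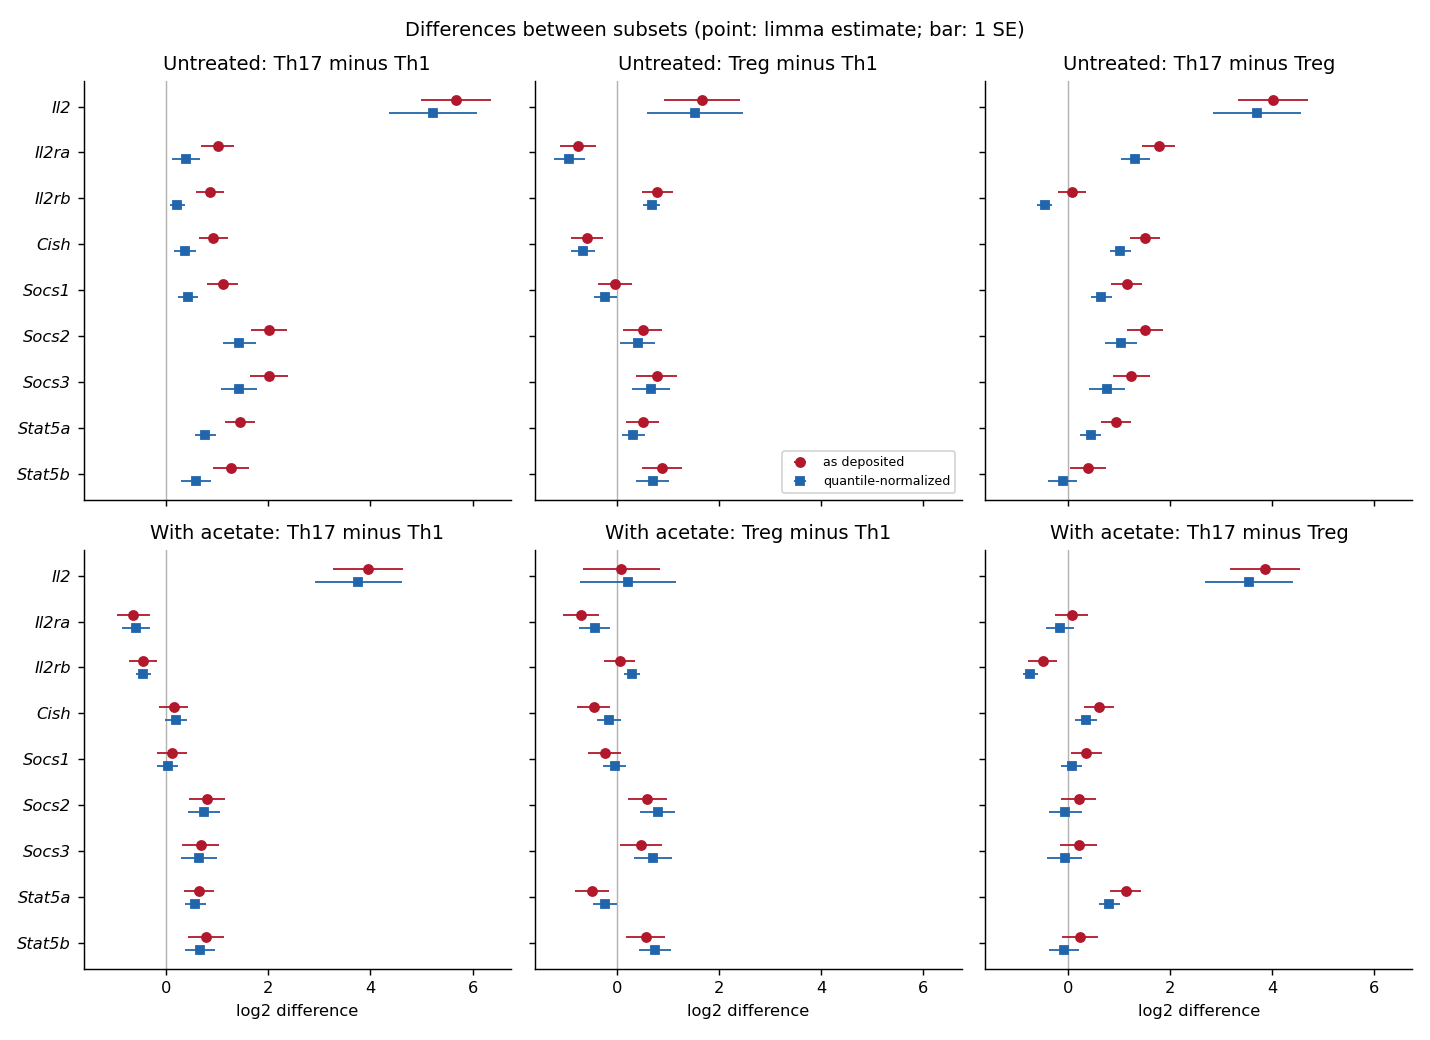
Log2 differences between subsets (x axis) of the 9 genes in untreated cultures (top) and in cultures with acetate (bottom), as deposited (circles) and quantile-normalized (squares), with bars of 1 SE. Il2 lies at 3.55 to 5.68 in the comparisons of Th17 with the other subsets, and with acetate the Cish, Socs1 and Socs2 differences lie nearer 0 than in the untreated Th17 comparisons as deposited.

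With acetate Il2 remained high in Th17 cultures, at 1831, 1010 and 506, against 80.3 and 51.5 in Treg and 63.0 and 58.5 in Th1 cultures. Again no Th17 array overlapped with the others, as was so for 28.1% of all genes against Th1 and 38.4% against Treg cultures. The difference from Th1 cultures was 3.95 ± 0.69 (adjusted p = 0.000941), and 3.76 after quantile normalization (adjusted p = 0.0231), where the call was lost without Th17 acetate replicate 2 or either Th1 acetate array (up to 0.124). It was the only 1 of the 9 genes called there, beside 2.84% of all genes called higher as deposited and 2.38% on both scales. The difference from Treg cultures was 3.87 ± 0.69 (adjusted p = 0.00329) as deposited and 3.55 after quantile normalization, where it was not called (adjusted p = 0.0795). Of all genes 0.550% were called higher as deposited and 0.366% on both scales. The Il2 call against Treg cultures was lost without Treg acetate replicate 2 (adjusted p = 0.105).

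Cish averaged 1255, 804 and 1114 in acetate-treated Th17, Treg and Th1 cultures, and Socs1 197, 150 and 177. Socs2 averaged 903, 722 and 492 and Socs3 970, 806 and 607. None of these 4 feedback genes was called between acetate-treated subsets on either scale. The Th17 and Treg groups overlapped for each of the 4. Il2ra averaged 1366, 1306 and 2280 with the brighter probe set, and its 3 differences did not pass (adjusted p = 0.377 to 0.952). Between Th17 and Th1 cultures its probe sets had opposite signs, -0.64 for the brighter and 0.59 for the other (adjusted p = 0.568). After quantile normalization they gave -0.60 and 0.59 (adjusted p = 0.245 and 0.429). Il2rb was lower in Th17 than in Treg cultures after quantile normalization (-0.74, adjusted p = 0.0307) and not called as deposited (-0.50 ± 0.28, adjusted p = 0.528), and the quantile-normalized call was kept without 5 of the 14 single arrays. Against Th1 cultures Il2rb gave -0.45 (adjusted p = 0.514, and 0.1 after quantile normalization). Stat5a averaged 617, 282 and 403 in Th17, Treg and Th1 cultures. It gave 1.13 against Treg (adjusted p = 0.0805; 0.81 and 0.0996 after quantile normalization) and 0.64 against Th1 cultures (adjusted p = 0.329; 0.57 and 0.144). Stat5b gave 0.22 and 0.78 (adjusted p = 0.842 and 0.303), and -0.08 and 0.66 after quantile normalization (0.95 and 0.221). Treated Treg and Th1 cultures differed in 0 of the 9 genes in limma on either scale (at an unadjusted p under 0.05, 0 as deposited and 2 after quantile normalization), beside 0.944% of all genes as deposited and 0.779% on both scales. The differences lay between -0.72 for Il2ra and 0.59 for Socs2 as deposited (adjusted p = 0.445 to 0.98), and between -0.44 and 0.79 for the same genes after quantile normalization (0.282 to 0.944). Leaving out either Th1 acetate array added Stat5a to the calls between Th17 and Treg cultures (adjusted p = 0.0421 and 0.041), and leaving out replicate 1 added Stat5b between Th17 and Th1 cultures (0.023).

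Other genes of the pathway were read from fixed lists, counting calls on both scales among the listed genes that were tested, and unadjusted p-values as deposited. Over all genes 8.49% were called lower and 4.20% higher in Th17 cultures by the same rule, 2.70% and 2.30% in Treg and 0.385% and 1.39% in Th1 cultures. These lists were chosen with earlier results known, and no list was tested against other genes. Of 12 genes of JAK and other signalling below the receptor, 2 fell in Th17 cultures with acetate, where 8.49% of all genes did. They were Gab2, an adaptor (211 to 48.5, -2.51 ± 0.49, adjusted p = 0.00159), and Pik3r1, a PI 3-kinase subunit (769 to 318, -1.27 ± 0.25, adjusted p = 0.00179). None of the 12 was called in limma's test on both scales in Treg or Th1 cultures (1 and 0 at an unadjusted p under 0.05). The list's median in Th17 cultures was -0.66 as deposited and -0.32 after quantile normalization. Of 12 other negative regulators of JAK and STAT signalling, among them Socs4 to Socs7, 0 were called on both scales in any 1 subset by limma, with 3, 3 and 2 at an unadjusted p under 0.05 in Th17, Treg and Th1 cultures. As deposited 1 was called lower in Th17 cultures, and after quantile normalization 2 were called higher. Averaged over subsets 1 of the 12 rose, where 9.22% of all genes did. It was Ptpn1, a phosphatase of JAK kinases (0.50 ± 0.16, adjusted p = 0.0236).

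Of 8 genes of the other gamma chain cytokines and receptors, 1 rose and 5 fell in Th17 cultures with acetate, beside 4.20% and 8.49% of all genes. The cytokine gene Il21 fell from 1353 to 248 (-2.43 ± 0.41, adjusted p = 0.000437), and Crlf2, the TSLP receptor chain, from 880 to 303 (-1.67 ± 0.34, adjusted p = 0.00189). Il9, also a cytokine gene, rose from 207 to 635 (1.64 ± 0.38, adjusted p = 0.00526). In Treg cultures Il15ra, the IL-15 receptor alpha chain, fell from 63.0 to 16.8 (adjusted p = 0.0217), and in Th1 cultures none was called (0 at an unadjusted p under 0.05). Averaged over subsets 3 of the 8 fell, Crlf2, Il7r and Il15ra (-1.03, -1.03 and -0.92), beside 11.2% of all genes. The list's median in Th17 cultures was -1.26 as deposited and -0.96 after quantile normalization.

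Of 19 other genes known as STAT5 targets, 1 rose and 7 fell in Th17 cultures with acetate, beside 4.20% and 8.49% of all genes. Foxp3 fell from 116 to 15.1 (-2.70 ± 0.37, adjusted p = 8.12e-05) and Bcl2, a survival gene, from 1729 to 603 (-1.54 ± 0.35, adjusted p = 0.00493). Gzmb, a cytotoxic granule protease, rose from 1932 to 8143 (2.37 ± 0.40, adjusted p = 0.000436). In Treg cultures 3 rose, among them Il10 and Lta, both cytokine genes (3.28 and 2.51), and 3 fell, among them Foxp3 (-2.55), beside 2.30% and 2.70% of all genes. In Th1 cultures Il10 and the pore-forming Prf1 rose (4.53 and 3.86) and 0 fell (2 were lower at an unadjusted p under 0.05 in limma), beside 1.39% and 0.385% of all genes. The list's median ranged from -0.44 to 0.20 as deposited over the 3 subsets.

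Of 22 regulators of Il2 transcription, 6 fell in Th17 cultures with acetate, beside 8.49% of all genes, and Il2 itself was not called there. The list includes a repressor and a signalling brake, Prdm1 and Dgka, so its counts and medians have no single direction for Il2. The early growth response factors Egr3 and Egr1 fell from 151 to 21.8 (-2.57 ± 0.45, adjusted p = 0.000544) and from 958 to 307 (-1.63 ± 0.31, adjusted p = 0.00131), and Fosl2, an AP-1 member, from 603 to 235 (-1.54 ± 0.39, adjusted p = 0.00948). In Treg cultures Egr3, Egr1 and Dgka, a brake on T cell receptor signalling, fell (-1.95, -1.33 and -1.36). In Th1 cultures Prdm1, a repressor of Il2, rose from 54.4 to 239 (2.08 ± 0.42, adjusted p = 0.0088). The list's medians were -0.66, -0.76 and 0.22 in Th17, Treg and Th1 cultures as deposited, beside -0.29, -0.13 and 0.23 over all genes tested.

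Across the 6 quantile-normalized group means, the genes closest in pattern to Il2 were Pdpn, Cpd and Aqp3, with root mean square differences of 0.62, 0.63 and 0.68 log2 units after centring, against an Il2 range of 5.22. Those closest to Cish were Arhgap21, Angptl6 and Slc7a6 (0.11 to 0.12, against a range of 1.21). Those closest to the brighter Il2ra probe set were Suv39h2, Hmox1 and Fads6 (0.13 to 0.15, against 1.97). These are likenesses over 6 points that share arrays and were not tested.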

How the data were processed

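Total RNA had been hybridised to 14 Affymetrix arrays (the 430 2.0 type, per the protocols of the Treg and Th1 samples). For each array the authors deposited a linear signal intensity of every probe set, from MAS5 per the submitters' processing notes. The sources used here do not give their target brightness, genome build or detection calls. Precision is limited by the number of arrays. Of 45101 probe sets, which include 64 array controls, 34945 carried 1 gene symbol, 932 several and 9211 none, and only the first kind was used. These classes leave a few probe sets uncounted. Of a gene's probe sets the one highest on average in log2(signal + 3) stood for the gene. Testing was limited to genes not below the 40th percentile of that average (3.60, a signal of 9.10). All arrays were fitted together with 6 group means in limma 3.58.1 (R 4.3.3, eBayes with trend, 8 residual degrees of freedom), giving contrasts within and between subsets, 1 F test and Benjamini-Hochberg adjustment over the 10916 genes tested. The fit was tested on simulated data. Members and gene lists were chosen with earlier results of these data known. Members are given in every comparison, singly or as a range. From each other list up to 3 genes per acetate comparison are named, those called on both scales with the largest difference, and 3 genes most like Il2, Il2ra and Cish. Promoter windows came from RefSeq (GRCm38.p6). Alternatives were quantile normalization, a common trimmed mean, other pseudocounts, no filter, the mean of a gene's probe sets, a replicate block and each array left out. Those chosen after seeing the data were each other probe set of a gene, the block on quantile-normalized values and crossed Th1 numbers.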

Additional observations from a re-analysis of the deposited data

How the results depend on the processing

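The calls of Socs1, Socs2 and Cish in Th17 cultures with acetate were kept as deposited under the alternatives run except with the dimmest Socs2 probe set (-0.54, adjusted p = 0.492). Another Socs2 probe set was not called after quantile normalization (adjusted p = 0.0599). The count of the 9 genes called for the mean acetate effect (4 genes) was 5 after quantile normalization and with a common trimmed mean, 3 with no filter, where Cish was lost (adjusted p = 0.0545), and 3 to 4 with 1 array left out. For acetate in Th17 cultures (3 genes) leaving out 1 array gave 3 to 4. It changed further as follows. For acetate in Treg cultures (1 gene) it was 0 with the mean of a gene's probe sets and 0 to 1 with 1 array left out. For acetate in Th1 cultures (1 gene) it was 0 after quantile normalization, with a common trimmed mean, with no filter and with the mean of probe sets, and 0 to 2 with 1 array left out. For untreated Th17 against Th1 cultures (9 genes) it was 4 after quantile normalization, 4 with a common trimmed mean and 3 to 9 with 1 array left out. For untreated Th17 against Treg cultures (7 genes) it was 3, 3 and 2 to 7, and for untreated Treg against Th1 (0 genes) 1 after quantile normalization and 0 to 1 with 1 array left out. With the mean of a gene's probe sets the mean acetate effect lost Il2ra (adjusted p = 0.318) and gained Stat5a (0.00528). In that setting untreated Th17 against Th1 lost Stat5b (0.0805) and untreated Th17 against Treg lost Stat5a (0.0756). The replicate block lost Cish for untreated Th17 against Th1 (adjusted p = 0.0507). With acetate, leaving out 1 array gave 1 to 2 for Th17 against Th1 and 0 to 2 for Th17 against Treg, and 0 to 2 for the F test. The cause of these changes was not tested. The other Il2ra probe set reversed the sign in Treg cultures (-0.47) and for the mean over subsets (-0.31). Stat5b and Socs3, not called in Treg cultures with acetate, also had probe sets of opposite sign there.

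Replicate numbers are shared between control and acetate groups, but the labels do not say that they mark a shared batch or animal. Deviations of same-numbered arrays correlated at 0.15, 0.16 and -0.06 for Th17, at 0.06 for Treg and at -0.16 for Th1, so the numbers were not taken to pair the samples, and 4 of 6 Th17 arrays correlated best with their own number. With the replicate block the F test called 1 gene, Il2ra (adjusted p = 0.00982), also on quantile-normalized values (1 gene). The block on quantile-normalized values called 2 genes for untreated Th17 against Th1, 3 for Th17 against Treg, and 0 for treated Th17 against Treg. With the Th1 numbers crossed, the block called 3, 1 and 1 genes for acetate in Th17, Treg and Th1 cultures and 0 in the F test. Groups of 2 arrays and unknown detection calls limit what low signals, such as Il2 outside Th17 cultures, can show.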
